A study of Mus musculus with 15 samples.

Results

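Striatal gene expression was compared between mice that ate olanzapine and mice given placebo, in each cell class the submitters named. The members were chosen by the drug recorded for each cell: 4101 of the 5581 deposited cells came from olanzapine or placebo mice, 10 of the 15 mice of the study. All mice were male C57BL/6J, an inbred laboratory strain, bought at 8 weeks of age and given about 1 week to settle. The 5 olanzapine mice received the drug in their food for 28 to 29 days. The labels call the other group placebo and give neither its form nor the olanzapine dose. A further 5 mice carried haloperidol pellets, and their libraries entered each model to share the estimate of spread between mice. They thereby also entered the filter that left out genes of low counts and the scaling between libraries. Each mouse was perfused and its brain cut into slices of 250 microns. The dissociated striatal cells were depleted of dead cells and run as a separate well of a droplet 3′ single-cell assay. Mice are numbered 1 to 5 within each group, in the order of the mouse numbers in the labels.

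After 14 cells with more than 20% mitochondrial counts were set aside, 4087 cells with 13993496 unique molecular identifiers (UMIs, each counting 1 captured transcript) were left. A mouse gave 79 to 1184 of these cells and 236090 (olanzapine 1) to 4321376 UMIs (olanzapine 3). The counts of all cells of a class were added up within each mouse, and sums over fewer than 10 cells were not used. Every test below therefore compared mice and not cells. The median mitochondrial share of a mouse's cells was 2.90% ± 0.489 (SD, n = 5) under olanzapine and 2.38% ± 0.364 (n = 5) under placebo (exact two-sided permutation p = 0.0952). The exact permutation p was 0.222 without the shared cells described next, and 0.0476 without olanzapine 3. Its part in any gene's result was not tested.

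One placebo library shared cells with other placebo libraries. Placebo 5 held 211 cell barcodes that also occurred in placebo 2 (101) or placebo 3 (110), out of its 514 deposited cells. Those barcodes were 60.8% of the cells of placebo 2 and 40.4% of the cells of placebo 3. All other pairs of these 10 libraries shared 9 barcodes in total, and no pair more than 2. In 210 of the 211 cases both cells had been put in the same class. A median of 97.0% of a shared placebo 5 cell's UMIs were also present, gene by gene, in the cell of the same barcode, against 59.3% in other cells of that class and library with as many UMIs. Shared cells in placebo 5 had a median of 1383 UMIs, the same barcodes in their other library 4452, and the rest of placebo 5 2920. Placebo 5 is therefore not independent of placebo 2 and placebo 3, and the origin of the shared cells was not tested. Results are also given with the shared cells taken out of placebo 5, a setting added after the data were seen. Placebo 5 is counted as a mouse in both settings.

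**Figure D1:**
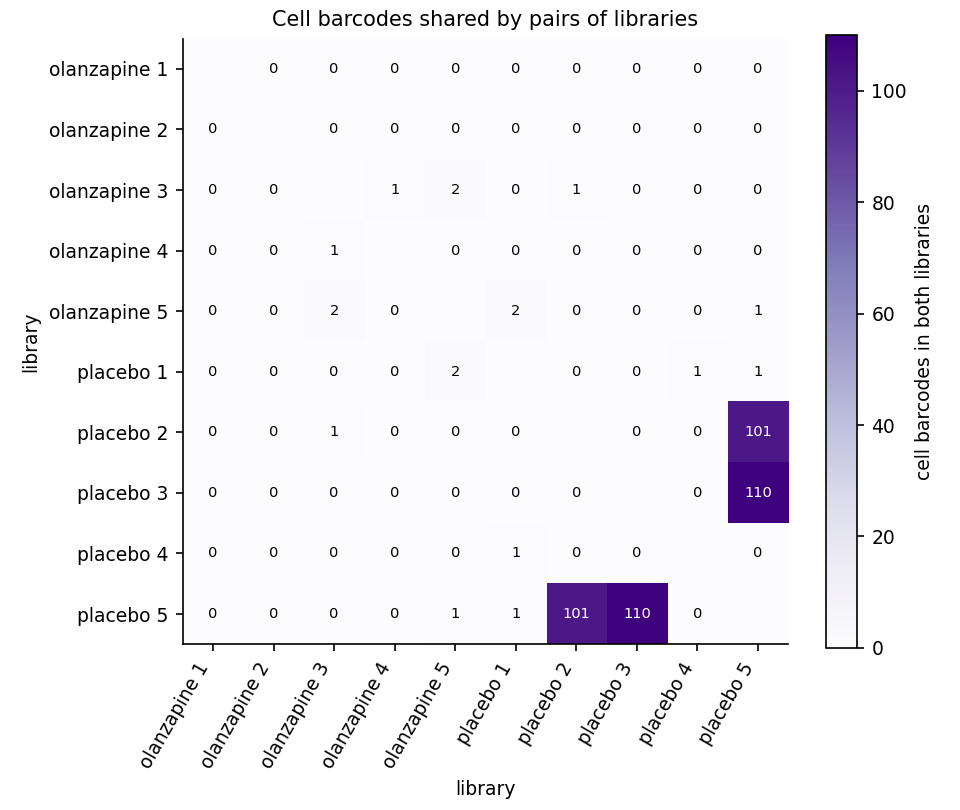
Number of cell barcodes found in both libraries of each pair, for the 5 olanzapine and 5 placebo mice. Placebo 5 shared 101 barcodes with placebo 2 and 110 with placebo 3, and no other pair shared more than 2.

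Olanzapine is an antipsychotic that blocks dopamine and serotonin receptors and also binds histamine and muscarinic receptors. Its dopamine receptor targets lie on the striatal projection neurons, which form a direct pathway marked by Drd1, Tac1 and Pdyn and an indirect pathway marked by Drd2, Penk and Adora2a. The drug also reaches the cells of the vessel wall: endothelial cells, whose programmes differ between arteries, capillaries and veins, and the pericytes and smooth muscle cells around them. Glia, neuroblasts from the nearby ventricular zone and oligodendrocyte-lineage cells made up the other classes.

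Across the 7 deposited classes, 5 of 23300 gene-by-class tests passed the threshold, which is 0.0215%, and all of them lay in the class called other. The test was edgeR's quasi-likelihood F test on UMI sums, with Benjamini-Hochberg adjustment within a class and a threshold of 0.05, and a gene past it is said to have risen or fallen. Without adjustment, 1076 tests (4.62%) had p under 0.05. The number of such tests was above what chance alone would give in the classes neuron and other, and below it in all other classes. Within each class, the log2 fold changes of all tested genes had a median between -0.017 and 0.009, so the lists below can be read against a centre near 0. Without the shared cells of placebo 5 the classes other than the one called other again had 0 called genes. Of 40 list medians described below, the largest shift on leaving those cells out was 0.20 (venous genes, in the class other), and 1 changed sign (precursor genes in the class called oligodendrocyte, from -0.02 to 0.02).

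Marker genes placed the class other in the vessel wall. Levels are given in counts-per-million of the class (CPM). Endothelial genes summed to between 23663 and 44100.2 CPM in its 9 mice, pericyte genes to between 5216 and 16194, and smooth muscle genes to between 3579 and 19303. It had 12, 95, 27 and 54 cells in olanzapine 2 to 5 and 44, 26, 23, 46 and 62 cells in placebo 1 to 5. Olanzapine 1, with 8 such cells, was left out. Of 2744 genes tested, 5 were called, or 0.182%. A further measure needs no model: 110 genes (4.01%) had olanzapine mice all above or all below placebo mice. Groups of fewer mice separate by chance more often, so this share cannot be compared between classes with different numbers of mice. Without adjustment, 269 genes (9.8%) had p under 0.05, 147 of them higher and 122 lower under olanzapine.

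Of the 4 genes that fell, 3 belong to the venous endothelial list. That list was chosen with earlier results of these data known, so this membership is no independent result. One of the 3, Tmsb10, was also present in the other cells of the same mice, as given further on. Tmsb10, which encodes the actin monomer binding protein thymosin beta 10, lies at chr6:72957347-72958748 (minus strand, mm10). Its level was 1009, 1236, 1833 and 1343 CPM (for single genes, scaled by TMM factors) in olanzapine 2 to 5, and 3256, 2780.5, 3751, 2813 and 3799 in placebo 1 to 5. Every olanzapine mouse was below every placebo mouse, with means of 1355 ± 347 (SD, n = 4) and 3280 ± 490 (n = 5). The log2 fold change was -1.28 ± 0.22 (SE, adjusted p = 0.0176 by edgeR), and -1.18 (adjusted p = 0.0355) without the shared cells. Tmsb4x, its paralogue, had 8176 ± 1252 CPM under olanzapine and 11448 ± 1118 under placebo, with groups that overlapped (log2 fold change -0.49, adjusted p = 0.383).

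Vwf encodes von Willebrand factor, the clotting protein that endothelial cells store and release, and lies at chr6:125546774-125686679. Olanzapine 2 to 5 had 0, 116, 90.5 and 86.1 CPM, from 0, 29, 4 and 10 UMIs. Placebo 1 to 5 had 300.5, 501, 628, 228 and 399 CPM, from 43, 80, 37, 23 and 63 UMIs. The groups did not overlap, and the log2 fold change was -2.18 ± 0.39 (SE, adjusted p = 0.0210 by edgeR). Slc38a5, an amino acid transporter of brain endothelium at chrX:8271133-8280179, was measured at 48.1, 128, 294 and 51.6 CPM in olanzapine 2 to 5. In placebo 1 to 5 it was at 384, 539, 424, 565 and 393 CPM, again without overlap. Its log2 fold change was -1.93 ± 0.37 (SE, adjusted p = 0.0309 by edgeR).

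Paqr5 encodes a membrane progesterone receptor and lies at chr9:61953481-62026856. It had 168, 217, 181 and 207 CPM in olanzapine 2 to 5 and 538, 545, 475, 297 and 405 CPM in placebo 1 to 5. This gene showed the tightest olanzapine group of the 5 called genes (193 ± 22.4, SD, n = 4, against 452 ± 103, n = 5), and its log2 fold change was -1.18 ± 0.24 (SE, adjusted p = 0.0309 by edgeR). One gene rose: Egr1, an immediate early transcription factor. Olanzapine 2 to 5 had 1009, 787, 520 and 611 CPM of Egr1, and placebo 1 to 5 had 356, 188, 306, 347 and 317. All olanzapine mice were above all placebo mice, and the log2 fold change was 1.27 ± 0.25 (SE; adjusted p = 0.0309 by edgeR).

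**Figure D2:**
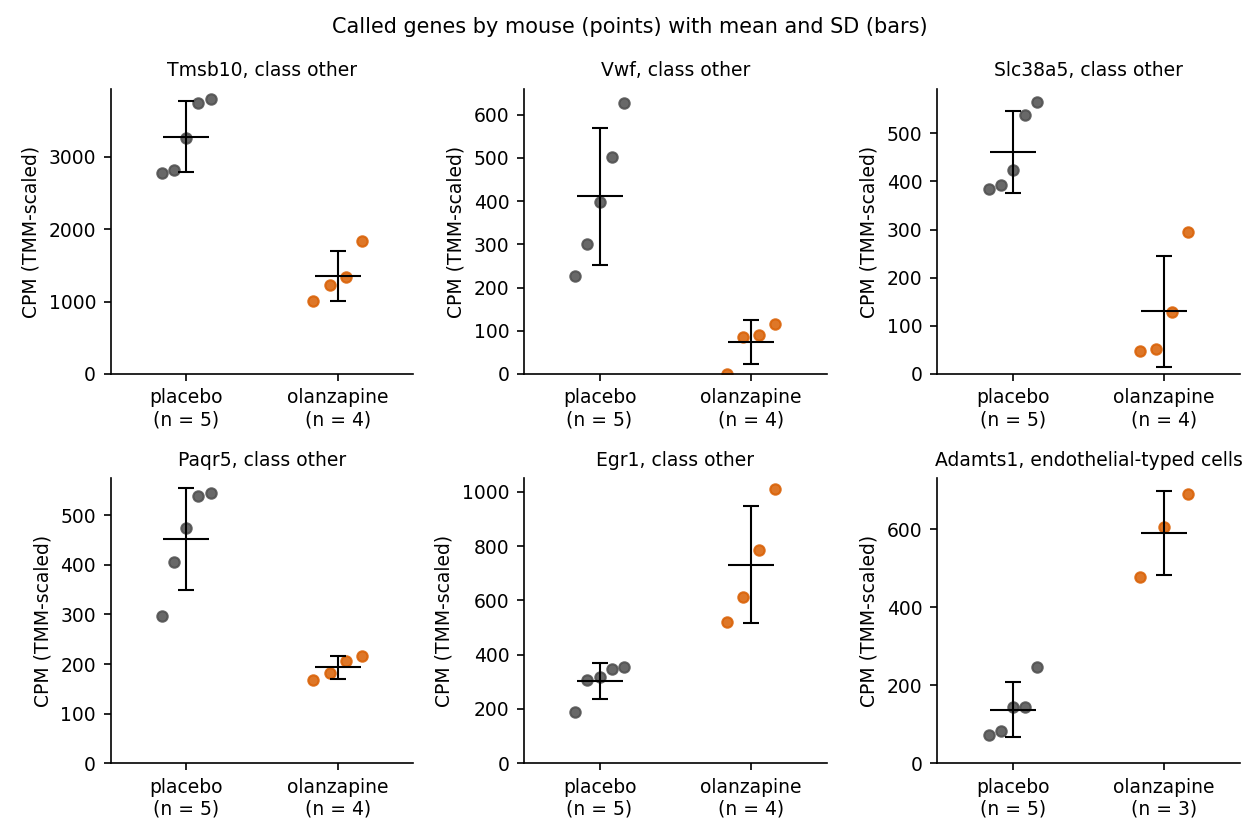
CPM in each mouse (points), with the mean and SD of each group (bars), for the 5 genes called in the class other and for Adamts1 in endothelial-typed cells. The groups do not overlap in any of the 6 panels, and the 4 genes that fell include Tmsb10, with group means of 1355 and 3280.

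The number of calls depended on single mice and on the shared cells. No gene was called without olanzapine 3, olanzapine 5 or placebo 5, against 11 without olanzapine 2, 9 without placebo 4, 3 without placebo 1, 2 without placebo 3 and 1 without placebo 2. Without the shared cells of placebo 5, Tmsb10 was the 1 gene still called, while adjusted p was 0.193 for Vwf, 0.190 for Slc38a5, 0.108 for Paqr5 and 0.113 for Egr1, with log2 fold changes of -1.98, -1.82, -1.16 and 1.19. Tmsb10 was called in 6 of the 9 fits that left out 1 mouse, and not without olanzapine 3 (adjusted p = 0.0894 by edgeR), olanzapine 5 (0.103) or placebo 5 (0.0560). Vwf was called in 5 of the 9 and not without olanzapine 3 (0.0894), olanzapine 5 (0.131), placebo 2 (0.0746) or placebo 5 (0.0575). Slc38a5 was called in 4 of the 9 and not without olanzapine 3 (0.181), olanzapine 5 (0.137), placebo 2 (0.0999), placebo 3 (0.0619) or placebo 5 (0.0575). Egr1 was called in 2 of the 9, those without olanzapine 4 and without placebo 4, and Paqr5 in 1, that without placebo 4. Over these fits the log2 fold change stayed between -1.46 and -1.19 for Tmsb10 and between -2.56 and -1.98 for Vwf.

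The same genes were set against all other cells of the same mice. For each mouse, the log2 CPM (plus a pseudocount of 1) in the class was reduced by that of its remaining cells, and the groups were compared by an exact two-sided permutation test, adjusted over 6 genes. The difference between groups was -1.05 for Tmsb10 (n = 4 and 5, exact p = 0.0159, adjusted p = 0.0317) and 1.28 for Egr1 (exact p = 0.0159, adjusted p = 0.0317). Outside the class, Tmsb10 stood at 1475 ± 344 CPM under olanzapine and 1725 ± 315 under placebo, and Egr1 at 266 ± 43.0 and 272 ± 68.1. Without the shared cells, adjusted p was 0.0536 for Tmsb10 and 0.0476 for Egr1. The other 3 genes were nearly absent outside the class, so the comparison restates their values within it: Vwf was at 0.871 and 1.38 CPM in the remaining cells, Slc38a5 at 0 and 0.755, and Paqr5 at 0.0625 and 0. These genes had been chosen for their difference in the class, so the values describe where the difference lay and are no independent test of it.

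The venous list, chosen with earlier results of these data known, had 9 tested genes of 14 members. One of them, Lcn2, which encodes an iron-carrier-binding protein, rested on 0, 1, 0 and 0 UMIs in olanzapine 2 to 5 and on 2, 143, 30, 6 and 54 in placebo 1 to 5. No olanzapine mouse had enough Lcn2 to count towards the filter on low counts, so among these mice its direction was fixed by the filter. The other 8 tested genes had negative log2 fold changes, with a median of -0.93, or -1.13 with Lcn2. They include the 3 called genes, and the 5 that were not called, among them Vcam1 and Nr2f2, had a median of -0.69. Tmsb10, Vwf and Slc38a5 had olanzapine mice all below placebo mice. Summed over the list, the venous genes reached 1547 to 2556 CPM in the olanzapine mice and 4035 to 5871 in the placebo mice. Most of this sum was Tmsb10 in every mouse, and Lcn2 was in it too, so it largely restates genes described above. In neuroblasts the same list summed to between 6479 and 13103 CPM, so its genes were not confined to the vessel wall. The median of the tested genes was -0.93 without the shared cells and -1.71 without olanzapine 3.

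The sign differed for arterial genes, though the difference from venous genes was not tested. All 9 tested arterial genes were higher, with a median of 0.24 and 1 gene at unadjusted p under 0.05, the gap junction gene Gja4 (325 ± 52.5 against 232 ± 72.0 CPM). That median turned to -0.16 without olanzapine 3. Of 10 capillary genes 4 were higher and 6 lower, with a median of -0.06. Of 20 genes shared by endothelial cells, 19 were lower, with a median of -0.21 (-0.073 without olanzapine 5, -0.13 without placebo 2). In endothelial-typed cells of the class, described further on, the same 20 genes were higher in 17 cases and lower in 3, with a median of 0.26. Among the genes lower in the whole class were the vascular growth factor receptor gene Kdr (log2 fold change -0.81, 99.2 ± 39.9 against 159 ± 28.2 CPM) and Egfl7, a secreted endothelial factor (-0.50), neither of which passed the test. In bulk sums like these, fewer cells of a type and less RNA per cell cannot be told apart.

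Genes of the contractile wall were higher. All 17 tested smooth muscle genes had a positive log2 fold change, with a median of 0.90. Of them 8 had unadjusted p under 0.05, against 9.8% of all genes tested in the class. Csrp1, a muscle LIM protein gene, averaged 472 ± 238 CPM under olanzapine and 240 ± 47.7 under placebo, and Myl9, a myosin light chain gene, 3150.2 ± 1456 and 1698 ± 347. Neither was called (adjusted p = 0.173 and 0.353 by edgeR). Summed smooth muscle genes ranged from 3579 to 19303 CPM over the olanzapine mice and from 5302 to 11271 over the placebo mice, so the groups overlapped. Among 15 pericyte genes 12 were higher, with a median of 0.34 (0.06 without placebo 1). They included the purinergic receptor gene P2ry14 (0.87) and Gper1, a membrane oestrogen receptor gene (1.24, 424 ± 117 against 187 ± 73.7 CPM, adjusted p = 0.0990).

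Cells of the class were typed by the marker list with the most detected genes. Smooth-muscle-typed cells made up 9.38% ± 6.46 (SD, n = 4) of the class under olanzapine and 3.86% ± 2.88 (n = 5) under placebo (exact two-sided permutation p = 0.127, adjusted p = 0.476 over 4 types). Endothelial-typed cells made up 49.4% ± 10.3 and 59.1% ± 12.5 (exact p = 0.238, adjusted p = 0.476). Pericyte-typed cells were at 22.6% and 15.8%, and fibroblast-typed cells at 10.3% and 10.8%. With the smooth-muscle-typed cells left out, no gene was called, against 5 with them. Tmsb10 then had a log2 fold change of -1.14 (adjusted p = 0.105 by edgeR), Vwf -1.95 (0.105), Slc38a5 -1.73 (0.105) and Paqr5 -1.005 (0.186).

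Immediate early genes, which cells switch on within minutes of a stimulus, were mostly higher in the class. Of 18 tested, 16 were higher, with a median of 0.61. Unadjusted p was under 0.05 for 8, against 9.8% of all genes tested in the class, with Egr1 the called one. Fos averaged 1813 ± 477 CPM under olanzapine and 950 ± 304 under placebo (log2 fold change 0.94, adjusted p = 0.173 by edgeR). Btg2, an antiproliferative gene, had 1001 ± 55.8 and 555 ± 162, with no overlap between the groups. Summed over the list, olanzapine mice had 11716 to 17468 CPM and placebo mice 8807 to 11969.

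Cytosolic heat shock genes, which encode chaperones that refold damaged proteins, had 13 of 13 tested members higher, with a median of 0.62. Unadjusted p was under 0.05 for 7 of them, against 9.8% of all genes tested in the class. Hspa1a, the stress-inducible Hsp70 gene, was at 529, 670, 792 and 293 CPM in olanzapine 2 to 5 and at 175, 144, 221, 465 and 114 in placebo 1 to 5. Olanzapine 5 was below placebo 4, so the groups overlapped (log2 fold change 1.38, adjusted p = 0.272 by edgeR). Hspa8, the constitutive Hsp70 gene, averaged 1820.5 ± 671 and 1040.2 ± 301 CPM, and Dnaja1, an Hsp40 co-chaperone gene, 648 ± 241 and 347 ± 110. Summed heat shock genes ranged from 6029 to 8279 CPM under olanzapine and from 3911 to 5896 under placebo, without overlap. None of the 13 passed the test.

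Promoter windows of RefSeq genes (assembly GRCm38.p6, 250 bases before to 50 after a start site) were searched for the motifs named for these groups, on both strands. The heat shock element was searched as GAANNTTC or TTCNNGAA, 2 alternatives that each read the same on both strands and can share a TTC or GAA end. It occurred in 4946 of 32851 windows, or 15.1%. Of the 13 tested heat shock genes 9 had a window, and 8 of these 9 had the motif in at least 1 (8 of 16 windows). The cyclic AMP response element TGACGTCA occurred in 1.79% of all windows and in 2 of 16 immediate early genes. The windows below are shown for a gene of each group that the results name, 5′ to 3′ on the gene's strand, with the motif in capitals: Hspa1a at chr17:34972107-34972406 (minus strand), Dnaja1 at chr4:40722218-40722517 (plus strand, 1 of its 3 windows) and Btg2 at chr1:134079106-134079405 (minus strand).
Hspa1a: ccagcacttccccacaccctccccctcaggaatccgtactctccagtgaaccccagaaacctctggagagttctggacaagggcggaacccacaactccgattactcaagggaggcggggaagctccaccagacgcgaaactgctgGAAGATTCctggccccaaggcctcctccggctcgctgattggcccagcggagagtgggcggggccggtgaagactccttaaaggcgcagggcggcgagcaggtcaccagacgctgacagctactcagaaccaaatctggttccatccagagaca
Dnaja1: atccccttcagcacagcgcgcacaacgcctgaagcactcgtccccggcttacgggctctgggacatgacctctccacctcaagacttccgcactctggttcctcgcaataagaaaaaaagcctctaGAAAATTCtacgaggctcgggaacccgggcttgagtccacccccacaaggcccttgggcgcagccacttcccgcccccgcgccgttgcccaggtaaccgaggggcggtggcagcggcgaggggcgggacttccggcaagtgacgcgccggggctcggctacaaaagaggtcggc
Btg2: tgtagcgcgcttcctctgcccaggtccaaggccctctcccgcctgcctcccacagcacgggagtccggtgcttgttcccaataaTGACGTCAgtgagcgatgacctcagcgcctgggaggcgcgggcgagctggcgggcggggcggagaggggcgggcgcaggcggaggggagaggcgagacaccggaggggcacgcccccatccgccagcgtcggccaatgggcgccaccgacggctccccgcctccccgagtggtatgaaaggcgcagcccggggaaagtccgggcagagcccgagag
A match says only that these letters are in the window.

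Dbp, a transcription factor under direct control of the circadian clock (chr7:45705088-45710203), was at 288, 413, 430 and 921 CPM in olanzapine 2 to 5. In placebo 1 to 5 it was at 126, 56.4, 17, 29.7 and 19 CPM, so every olanzapine mouse was above every placebo mouse. Its log2 fold change was 3.28 ± 0.69 (SE), and it did not pass the test (adjusted p = 0.121 by edgeR, 0.210 without the shared cells, 0.0220 by DESeq2). Of the placebo mice only placebo 1 had enough Dbp to count towards the filter on low counts, so Dbp entered mainly through the other groups. Tef and Hlf, which encode transcription factors of the same family, had log2 fold changes of 1.46 and 1.65 (adjusted p = 0.353 and 0.427). Only 5 of the 21 clock genes and outputs passed that filter, with a median of 1.46. The placebo means of Dbp, Tef and Hlf were low (49.6, 49.2 and 36.2 CPM), under the level the filter asks for. Where more members passed, the median was lower: 0.24 over 8 genes without olanzapine 1 and 2 and haloperidol 1 and 2, 0.34 over 7 genes without placebo 3, and 0.55 over 8 genes with doublets (droplets called as 2 cells by Scrublet) removed. The labels give no time of day of tissue collection.

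The E-box CACGTG, the site bound by the clock's activating complex, occurred in 7.15% of all windows and in windows of 1 of the 5 tested clock genes, Tef. The Tef window at chr15:81802423-81802722 (plus strand, 1 of its 2) is printed with the motif in capitals.
Tef: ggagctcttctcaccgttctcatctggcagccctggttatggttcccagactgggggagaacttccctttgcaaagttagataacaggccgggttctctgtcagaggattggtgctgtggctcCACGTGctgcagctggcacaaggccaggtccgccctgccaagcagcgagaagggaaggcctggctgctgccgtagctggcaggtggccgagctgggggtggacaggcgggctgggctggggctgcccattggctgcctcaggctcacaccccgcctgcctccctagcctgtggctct

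Ribosomal protein genes were lower: 79 of 80 tested, with a median of -0.34, 22 of them at unadjusted p under 0.05 and 22 with olanzapine mice all below placebo mice. Over all genes tested in the class, 9.8% had such a p, and 4.01% had no overlap in either direction. Rpl35 averaged 1166 ± 77.9 CPM under olanzapine and 1962 ± 426 under placebo (log2 fold change -0.75, adjusted p = 0.121 by edgeR), and Rps29 3484 ± 507 and 5742 ± 1799. None passed the test. Summed ribosomal protein genes were at 85131 to 95723 CPM in olanzapine mice and at 102391 to 131657 in placebo mice. These genes share reads with many processed pseudogenes, so single values are uncertain. Of 17 interferon response genes 14 were lower, with a median of -0.23. Among the lower ones were H2-K1, a class I antigen presentation gene (334 ± 93.4 against 558 ± 69.9 CPM), and Ifitm3, an antiviral membrane protein gene (1545 ± 304 against 2214 ± 464). Both had groups that did not overlap and neither passed the test.

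Further genes of the class are given by their values, and none of them passed the test. Oxct1, which encodes the enzyme that lets cells burn ketone bodies, was at 154 ± 22.3 CPM under olanzapine and 59.1 ± 21.3 under placebo (log2 fold change 1.31, adjusted p = 0.121 by edgeR). Sparcl1, a matrix protein gene, was at 2271 ± 465 and 1461 ± 47.3, and Col1a2, a fibrillar collagen gene, at 156 ± 14.8 and 78.0 ± 34.1. The placebo means of Oxct1 and Col1a2 were under the level that the filter on low counts asks for. Mal, a myelin membrane gene, was at 286 ± 107 and 540 ± 160. Mature oligodendrocyte markers summed to 219 to 721 CPM of the class under olanzapine and 628 to 900 under placebo, and their part in the value of Mal was not tested.

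Within endothelial-typed cells alone, 1 of 1252 genes was called (0.0799%), with 46, 15 and 19 cells in olanzapine 3 to 5 and 31, 19, 10, 24 and 35 in placebo 1 to 5. Adamts1, which encodes a secreted metalloprotease that cleaves matrix proteoglycans (chr16:85793827-85803113), was at 691, 606 and 477 CPM in olanzapine 3 to 5 and at 144, 143, 81.7, 247 and 71.0 CPM in placebo 1 to 5. The groups did not overlap, and the gene rose by 2.17 ± 0.33 on the log2 scale (SE, adjusted p = 0.00166 by edgeR, n = 3 and 5), or by 2.07 without the shared cells. Whether the placebo mice had enough Adamts1 to count towards the filter on low counts was not tested. Its direction may therefore not be free of the filter. Adamts1 was called in 7 of 8 fits that left out 1 mouse and not without olanzapine 3 (adjusted p = 0.307 by edgeR). In the whole class Adamts1 was at 409, 389, 498 and 465 CPM in olanzapine 2 to 5 and at 231, 100, 102, 287 and 127 in placebo 1 to 5 (log2 fold change 1.35, adjusted p = 0.272). Against all other cells of the same mice, where it averaged 34.4 and 37.9 CPM, it differed by 2.24 (exact two-sided permutation p = 0.0357, adjusted p = 0.0429 over 6 genes, 0.0536 without the shared cells).

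The 4 genes that fell in the whole class kept their sign in endothelial-typed cells, and none passed the test there. Slc38a5 had a log2 fold change of -1.29 (397 ± 244 against 889 ± 156 CPM, adjusted p = 0.143 by edgeR), with no overlap. Vwf had -1.57 (252 ± 8.54 against 779 ± 480, adjusted p = 0.334), Tmsb10 -0.97 (2757 ± 1310.0 against 5167 ± 1345, 0.340) and Paqr5 -0.54 (502 ± 66.9 against 751 ± 212, 0.504). All 7 tested venous genes were lower (median -1.28, or -1.12 over 6 genes without Lcn2), and all 6 arterial genes higher (median 1.05). Capillary genes were higher for 7 of 9 (median 0.25) and the genes shared by endothelial cells for 17 of 20 (median 0.26), where the whole class had medians of -0.06 and -0.21. Detection of endothelial genes had been used to type these cells. All 5 heat shock genes (median 0.66) and 14 of 15 immediate early genes (median 0.63, 0.27 without olanzapine 3) were higher, and all 79 ribosomal protein genes were lower (median -0.38). Unadjusted p was under 0.05 for 128 genes (10.2%), and 95 genes (7.59%) had groups that did not overlap.

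**Figure D3:**
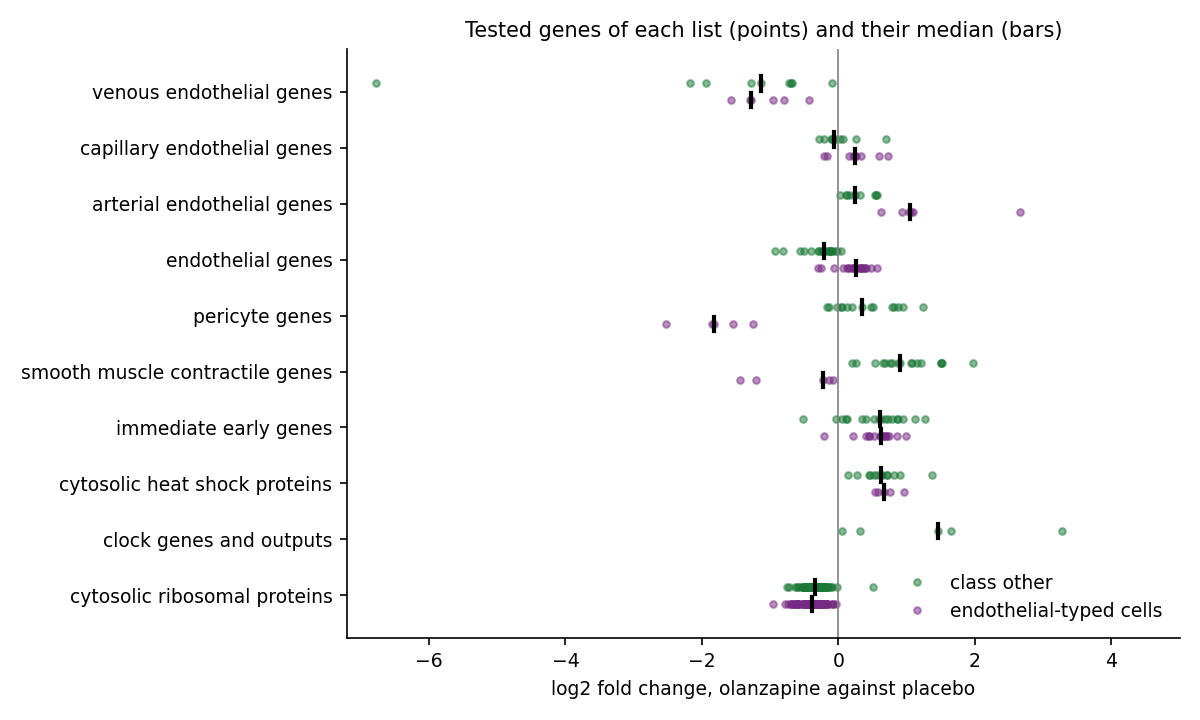
Log2 fold change of each tested gene (points) and the median of each list (black bars), olanzapine against placebo, for the whole class other and for endothelial-typed cells within it. Venous genes lie below 0 in both, with medians of -1.13 and -1.28, and arterial genes above 0, with medians of 0.24 and 1.05. Without Lcn2 the venous medians are -0.93 and -1.12.

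Haloperidol mice shared the placebo controls, so their values are only set beside those above. Tmsb10 also fell under haloperidol (log2 fold change -1.14, adjusted p = 0.0402 by edgeR), against -1.28 under olanzapine. Vwf had -1.03 (adjusted p = 0.805), Slc38a5 -1.36 (0.546), Paqr5 -0.23 (0.892) and Egr1 0.28, against -2.18, -1.93, -1.18 and 1.27 under olanzapine. Whether the drugs differed in these genes was not tested.

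Neurons, from 5 olanzapine and 5 placebo mice, gave no called gene among 4486 tested (edgeR, smallest adjusted p = 0.584). Without adjustment 333 genes (7.42%) had p under 0.05, 137 higher and 196 lower, and DESeq2 also called 0. Groups did not overlap for 74 genes (1.65%). Mixed neuron types were present: interneuron genes summed to 153 CPM in olanzapine 2 and to 22361 in placebo 4. The direct-pathway share of typed projection neurons was 55.1% ± 13.4 (SD, n = 5) and 52.1% ± 13.4 (n = 5) under olanzapine and placebo (exact two-sided permutation p = 0.754). With cells thinned to 1000 UMIs it was 41.6% and 45.5%, so no direction can be read from it.

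The receptors that olanzapine binds showed no difference that passed the test in neurons. Among 20 receptor genes present, 5 were high enough to be tested. The log2 fold change was -0.19 ± 0.30 (SE) for Drd1, -0.04 ± 0.28 for Drd2, -0.02 ± 0.28 for Htr2c, 0.05 ± 0.34 for Htr1b and -0.14 ± 0.33 for Chrm1. Drd2 was at 222, 192, 73.8, 119.8 and 114 CPM in olanzapine 1 to 5 and at 147, 162, 158, 75.7 and 139 in placebo 1 to 5. The ranges overlapped almost completely. Intervals of this width do not show that the levels were alike.

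Direct-pathway genes had 0 of 5 members higher, with a median of -0.30 (-0.09 without olanzapine 3, -0.71 without olanzapine 5). Tac1, which encodes the substance P precursor, was at 1869, 2558, 2591, 2795 and 3475 CPM in olanzapine 1 to 5 and at 1862, 6809, 3262, 4751 and 4572 in placebo 1 to 5. The lowest mice of both groups were nearly equal, and the high placebo mice set the difference (log2 fold change -0.67, unadjusted p = 0.0475, adjusted p = 0.663 by edgeR). Pdyn, the dynorphin precursor gene, averaged 153 ± 64.0 and 243 ± 79.4 CPM. Indirect-pathway genes had 5 of 6 members lower, with a median of -0.19, among them Adora2a (385 ± 141 against 594 ± 189) and Gpr6 (247 ± 121 against 402 ± 168). The median was -0.36 without olanzapine 2 or without placebo 4, -0.12 without placebo 3, -0.52 without olanzapine 1 and 2 and haloperidol 1 and 2, and -0.058 with Scrublet doublets removed. Penk, the enkephalin precursor gene, averaged 4447 ± 1636 and 5541 ± 1997. Of 12 genes shared by both pathways 9 were higher, with a median of 0.13. They included the signalling phosphoprotein gene Ppp1r1b (0.44).

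Genes of sterol synthesis and of the endoplasmic reticulum were mostly lower in neurons. All 10 tested cholesterol synthesis genes had a negative log2 fold change, with a median of -0.30. Insig1, a sterol-sensing brake on the pathway, averaged 28.4 ± 24.3 and 78.0 ± 29.9 CPM (log2 fold change -1.07, adjusted p = 0.584 by edgeR). The summed list overlapped between groups, at 892 to 1053 CPM under olanzapine and 811 to 1358 under placebo. Of 20 endoplasmic reticulum chaperone genes 17 were lower, with a median of -0.24, such as Dnajb11 (169 ± 43.7 against 252 ± 60.9) and Pdia6 (353 ± 69.4 against 506 ± 118). Ddost, a subunit of the complex that adds sugars to new proteins there, was at 129.6, 218, 150.4, 237 and 215 CPM in olanzapine 1 to 5. In placebo 1 to 5 it was at 299, 443, 337, 271 and 356, with no overlap (log2 fold change -0.79, adjusted p = 0.584). None of these genes passed the test.

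On the higher side in neurons stood mitochondrially encoded genes, 12 of 13, with a median of 0.40 (0.22 without olanzapine 1). The example mt-Nd4, a subunit gene of respiratory complex I, averaged 5082 ± 1579 and 3516 ± 823 CPM, beside the mitochondrial shares of 2.90% and 2.38% given above. Immediate early genes were higher for 8 of 9 (median 0.36, 0.12 without olanzapine 1), with Egr4 at 263 ± 223 and 98.5 ± 50.6. Gad1, which makes the transmitter GABA in these neurons, averaged 447 ± 130 and 239 ± 62.7 (log2 fold change 0.83, adjusted p = 0.584 by edgeR). Glutamate receptor and postsynaptic genes were split 15 higher to 7 lower, and vesicle release genes 13 to 9, with Cplx1 (1.05) and Syn1 (0.80) among the higher. Hlf was at 55.5, 57, 62.4, 89.2 and 94.9 CPM in olanzapine 1 to 5 and at 29.4, 23.9, 31.6, 43.3 and 38.9 in placebo 1 to 5. Hlf thus had every olanzapine mouse above every placebo mouse, with a log2 fold change of 1.18 (adjusted p = 0.584). No placebo mouse had enough Hlf to count towards the filter on low counts, so among these mice it entered only through the olanzapine group. Serpini1, a neuronal protease inhibitor gene (-1.10), Paip2b, a regulator of translation (1.11), Parl, a mitochondrial membrane protease gene (-0.85), and Tm2d3 (-0.78) completed the genes of smallest p.

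One cell labelled neuron held mostly red cell transcripts. Haemoglobin and other erythrocyte genes summed to 29720 CPM in the neurons of olanzapine 3, against 0 to 84.4 in the other 9 mice. Of the 116 cells labelled neuron in olanzapine 3, 1 held 12777 haemoglobin UMIs out of 14262 in all. That cell stayed in the neuron sums used above.

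Astrocytes, which clear transmitters and supply neurons with lactate and lipids, gave no called gene among 4545 tested in 5 and 5 mice (edgeR, smallest adjusted p = 0.999, and 0 by DESeq2). Unadjusted p was under 0.05 for 139 genes (3.06%), and groups did not overlap for 27 (0.594%). Fabp7, a fatty acid carrier of astrocytes and neural progenitors, was at 68.2, 49.8, 175, 197 and 121 CPM in olanzapine 1 to 5 and at 214, 219.7, 343, 249 and 277 in placebo 1 to 5. All olanzapine mice were below all placebo mice (log2 fold change -0.80, adjusted p = 0.999). Ccdc107 (74.2 ± 30.8 against 146 ± 21.4) was also lower without overlap, and Gpatch8 (123 ± 29.2 against 65.6 ± 15.6) higher without overlap. Tspo, an outer mitochondrial membrane protein gene, averaged 68.8 ± 59.6 and 87.5 ± 31.8, and Lrrc8a, a volume-regulated anion channel gene, 133 ± 38.8 and 235 ± 50.5.

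Energy genes are given for astrocytes by genome, and the difference between the lists was not tested. Mitochondrially encoded genes were higher for 10 of 12 (median 0.20, 0.01 without olanzapine 1), with mt-Co1 at 10334 ± 3671 CPM under olanzapine and 7021 ± 755 under placebo and no overlap. Nuclear genes of oxidative phosphorylation were lower for 65 of 77, with a median of -0.12 (-0.17 without olanzapine 5, -0.037 without placebo 5), such as Ndufa5 (210 ± 90.5 against 349 ± 67.1). Clock genes and outputs were higher for 12 of 14 (median 0.28, 0.11 without placebo 2). Dbp was at 170, 149, 392, 421 and 434 CPM in olanzapine 1 to 5 and at 298, 341, 169, 172 and 212 in placebo 1 to 5, so olanzapine 3 to 5 were above all placebo mice and olanzapine 1 and 2 were not. Rora, a nuclear receptor of the clock, averaged 165 ± 48.3 and 97.6 ± 17.2. No member of these lists passed the test.

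Microglia, the resident immune cells, gave no called gene among 3086 tested in 5 and 5 mice (edgeR, smallest adjusted p = 1.0, and 0 by DESeq2), with 101 genes (3.27%) at unadjusted p under 0.05 and 13 (0.421%) without overlap. Dpysl2, a cytoskeletal regulator gene, was at 167, 207, 204, 185 and 118 CPM in olanzapine 1 to 5 and at 242, 300, 328, 301 and 272 in placebo 1 to 5. The groups did not overlap (log2 fold change -0.68, adjusted p = 1.0). Bhlhe41, a transcriptional repressor tied to microglial identity and the clock, averaged 84.1 ± 31.3 and 200 ± 78.8. Heat shock genes were higher for 12 of 14 (median 0.23), with Hspa8 at 1823 ± 439 and 1242 ± 257 and Dnaja1 at 262 ± 88.5 and 168 ± 33.2. Homeostatic microglial genes were lower for 16 of 20 with a median of only -0.07, led by the receptor gene Fcrls (1999 ± 212 against 2568 ± 602). Disease-associated genes were lower for 11 of 16 (median -0.04), with Lyz2 at 432 ± 64.0 and 658 ± 314, and the chemokine gene Ccl3 was at 989 ± 270 and 1389.5 ± 440.2. C3ar1, a complement receptor gene, averaged 141 ± 59.7 and 223 ± 37.5 without overlap.

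Neuroblasts, immature neurons that carried cycling progenitor genes as well, were compared in olanzapine 2 to 5 and all 5 placebo mice. None of 2238 genes was called (edgeR, smallest adjusted p = 1.0, and 0 by DESeq2). Unadjusted p was under 0.05 for 61 genes (2.73%), and groups did not overlap for 35 (1.56%). Endoplasmic reticulum chaperone genes, lower in neurons, were higher here for 7 of 8 (median 0.39, 0.69 without placebo 1, 0.20 without placebo 3), though the difference between the classes was not tested. Pdia3, a disulphide isomerase of that compartment, was at 252, 196, 338 and 189 CPM in olanzapine 2 to 5 and at 185, 98.1, 146, 122 and 98.8 in placebo 1 to 5. The lowest olanzapine mouse was just above the highest placebo mouse (log2 fold change 0.79, adjusted p = 1.0). Calr, a calcium-binding chaperone gene, averaged 234 ± 42.6 and 137 ± 41.4, and Hspa5, the main Hsp70 of the compartment, 338 ± 91.2 and 222 ± 84.3. Cycling genes were higher for 15 of 16 (median 0.25, 0.03 without placebo 3), with the kinetochore motor gene Cenpe at 155 ± 69.1 and 53.6 ± 32.7. The summed cycling list overlapped, at 5455 to 11919.6 and 2272 to 9822 CPM. Neuroblast identity genes were split 10 higher to 20 lower. Cep83, a centriole gene (101 ± 22.8 against 46.3 ± 6.11), and Fubp1, a nucleic acid binding regulator gene (547 ± 49.8 against 342 ± 54.8), were higher without overlap. Cox14, an assembly factor gene for respiratory complex IV, was lower (189 ± 33.3 against 304 ± 50.4). No placebo mouse had enough Cep83 to count towards the filter on low counts, and the placebo mean of Cenpe was under the level it asks for.

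The names of the oligodendrocyte-lineage classes went against their markers. Genes of mature, myelinating oligodendrocytes summed to 74769.8 to 103090.4 CPM in the class called olig precursor and to 1579 to 3830 in the class called oligodendrocyte. Both are described by their deposited names and their leading genes.

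The class called oligodendrocyte, which carried precursor genes, was tested in olanzapine 3 to 5 and placebo 1, 3, 4 and 5, with no called gene among 3485 (edgeR, smallest adjusted p = 0.685, and 0 by DESeq2). Unadjusted p was under 0.05 for 90 genes (2.58%), and groups did not overlap for 177 (5.08%). With 3 against 4 mice, groups separate by chance more often than with 5 against 5, so this share alone shows no difference. Dll1, a Notch ligand gene, was at 98.3, 116 and 112 CPM in the olanzapine mice and at 38.1, 21.1, 45.1 and 36.2 in the placebo mice. The groups did not overlap (log2 fold change 1.53, adjusted p = 0.999). Tshz2, a zinc finger gene, was also higher (137 ± 18.5 against 60.2 ± 16.4) without overlap. 2810004N23Rik (47.9 ± 23.7 against 158 ± 38.8) and Ttyh2, a membrane protein gene (19.7 ± 17.2 against 104 ± 46.9), were lower without overlap. No placebo mouse had enough Dll1, and no olanzapine mouse enough Ttyh2, to count towards the filter on low counts. The lower group means of Tshz2 and 2810004N23Rik were also under the level it asks for. Among these mice the filter therefore favoured groups that do not overlap for these genes. Genes of newly formed oligodendrocytes were lower for 9 of 9 (median -0.36, -0.16 without placebo 5) and immediate early genes for 9 of 12 (median -0.36, -0.18 without placebo 4), with Fosb at 665 ± 141 and 1009.5 ± 269. Precursor genes were split 11 to 12.

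The class called olig precursor, which carried myelin genes, was tested in olanzapine 2 to 5 and placebo 1, 4 and 5. None of 2716 genes was called by edgeR, and DESeq2 called 1. Unadjusted p was under 0.05 for 83 genes (3.06%), and groups did not overlap for 119 (4.38%). With 4 against 3 mice, this share alone shows no difference either. Dcaf17, a substrate receptor of a ubiquitin ligase, was at 300, 131, 355 and 328 CPM in the olanzapine mice and at 645, 1192 and 728 in the placebo mice. All olanzapine mice were lower, and the log2 fold change was -1.62 ± 0.31 (SE; adjusted p = 0.0678 by edgeR, 0.0140 by DESeq2). Myelin genes were split 19 higher to 10 lower (median 0.04), with Nfasc, an adhesion gene of the paranodal junction, at 153 ± 41.8 and 268 ± 37.0. Cholesterol synthesis genes, whose product is a main lipid of myelin, were lower for 10 of 14 (median -0.41), but the median was 0.06 without placebo 1. Insig1 averaged 121 ± 64.0 and 203 ± 88.5 CPM.

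Some genes had the same sign in every class where they were tested, and these were picked after their values had been seen. Dbp was higher in 4 of 4 classes, at unadjusted p under 0.05 in each, with log2 fold changes of 0.61 in astrocytes, 0.69 in neurons, 0.90 in the class oligodendrocyte and 3.28 in the class other. In neurons Dbp was at 167, 155, 221, 276 and 224 CPM in olanzapine 1 to 5 and at 137, 191, 147, 70.3 and 128 in placebo 1 to 5. In the class oligodendrocyte it was at 174, 290 and 186 CPM in olanzapine 3 to 5 and at 139.5, 116, 54.1 and 99.4 in placebo 1, 3, 4 and 5, without overlap. Hlf was higher in 3 of 3 classes, whereas Tef was higher in 4 of 6 and Per3, a core clock gene, in 2 of 3. In the class other, placebo 1 was the only placebo mouse with enough Dbp to count towards the filter on low counts. In neurons no placebo mouse had enough Hlf. Those directions are therefore not free of the filter. Classes of a mouse share its library and its hour of collection, so they are not independent of each other.

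**Figure D4:**
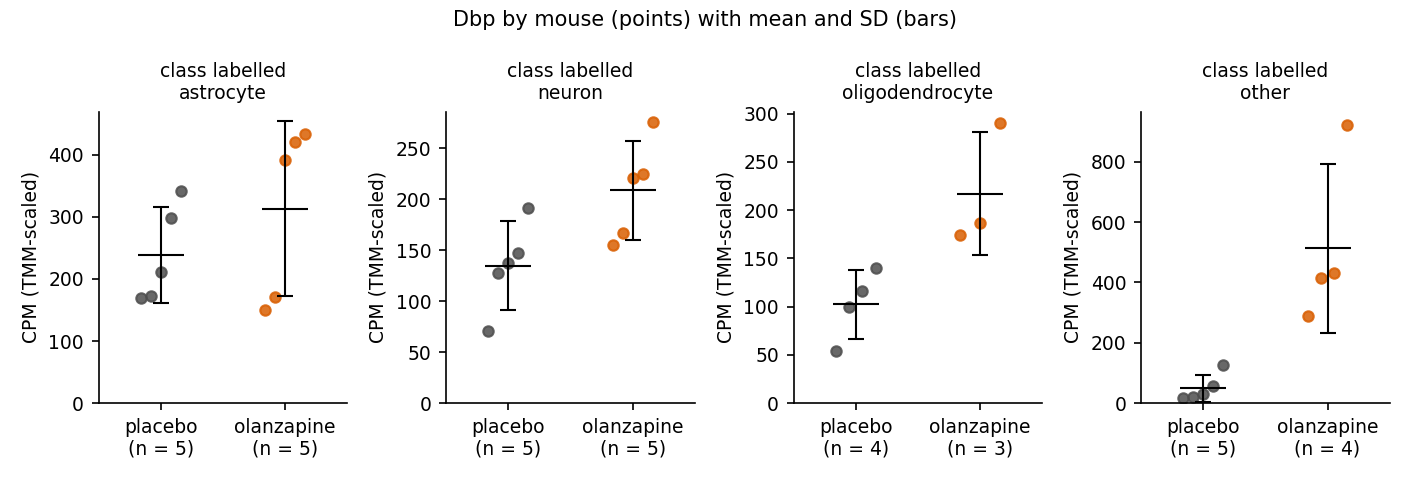
Dbp in CPM in each mouse (points), with the mean and SD of each group (bars), in the 4 classes where it was tested. In the class other the olanzapine mice lie between 288 and 921 and the placebo mice between 17 and 126, while in astrocytes and neurons the groups overlap.

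Gnb1, a G protein beta subunit gene, was lower in 7 of 7 classes and had unadjusted p under 0.05 in 3. Its log2 fold change ran from -1.09 in the class olig precursor (197 ± 11.7 against 401 ± 192 CPM) and -0.91 in the class oligodendrocyte (181 ± 60.6 against 342 ± 74.7) to -0.06 in microglia. Insig1 was lower in 3 of 3 classes at unadjusted p under 0.05 in each, with -1.07 in neurons, -1.05 in the class olig precursor and -0.57 in astrocytes. In neurons its olanzapine mean was under the level that the filter on low counts asks for. Dnaja1 was higher in 7 of 7, with 0.90 in the class other, 0.69 in microglia and 0.02 in the class olig precursor. Tmsb10 was lower in 5 of 7 and Egr1 higher in 5 of 6. Outside the class other none of these values passed the adjusted test.

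**Figure D5:**
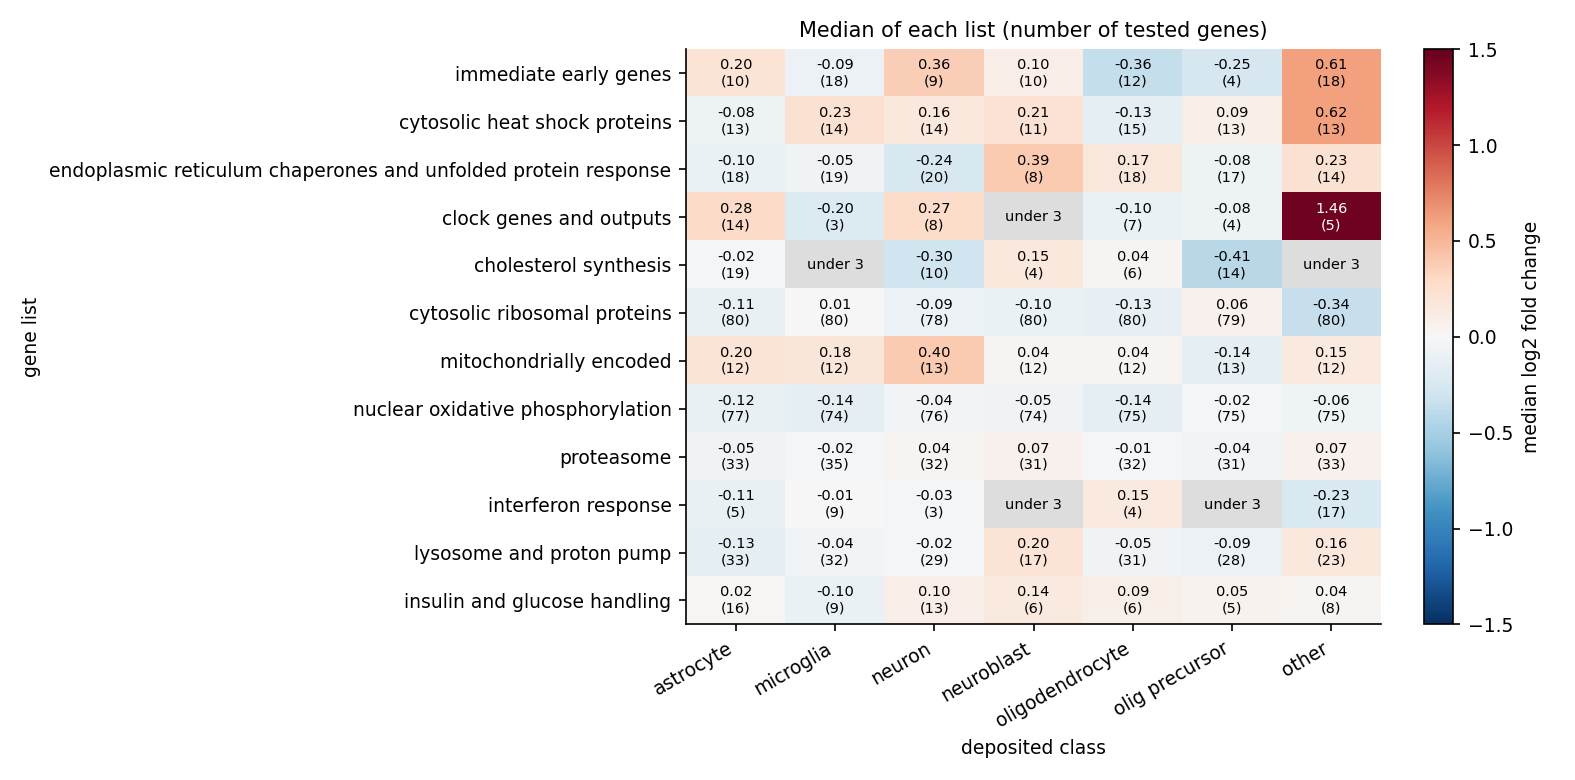
Median log2 fold change (olanzapine against placebo) of the tested members of each gene list in each deposited class, with the number of tested members in parentheses. The class other has medians of -0.34 for ribosomal, 0.62 for heat shock and 1.46 for clock genes, the last over 5 genes and 0.24 over 8 without olanzapine 1 and 2 and haloperidol 1 and 2. Neurons have 0.40 for mitochondrially encoded genes.

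No class differed in its share of cells past the adjusted threshold, which does not show that the shares were alike. Neurons made up 21.9% ± 7.46 (SD, n = 5) of cells under olanzapine and 15.0% ± 3.73 (n = 5) under placebo (exact two-sided permutation p = 0.119, adjusted p = 0.278 over 7 classes). Astrocytes were at 25.0% ± 8.86 and 29.6% ± 5.39, and microglia at 18.4% ± 6.39 and 15.1% ± 3.71. The smallest p belonged to the class other (8.81% ± 1.17 against 11.9% ± 2.86, exact p = 0.0635, adjusted p = 0.222) and to the class oligodendrocyte (6.95% ± 1.93 against 10.4% ± 2.78, exact p = 0.0635, adjusted p = 0.222).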

How the data were processed

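Droplet 3′ single-cell RNA libraries of 15 mice were deposited as 1 table of UMI counts by the authors (15932 genes, 5581 cells), with cell lines giving mouse, drug and class. The build mm10 and the tools Seurat and Cell Ranger stand in the submitters' processing notes, and the sources used here give no versions. Every deposited cell had at least 501 genes.

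Counts were summed per mouse and class (10 or more cells) and tested in edgeR 4.0.16 (R 4.3.3): filterByExpr, TMM factors, robust quasi-likelihood F test, all 15 mice in 1 fit per class, two-sided, Benjamini-Hochberg within a class at 0.05. The SE is the log2 fold change divided by the square root of F. CPM are TMM-scaled. DESeq2 1.42.0 was an alternative. Doublets were kept. Scrublet (scanpy 1.11.5) at its automatic threshold marked 81 of 5581 cells (1.45%), 38 of them among the 128 cells of olanzapine 2 and 9 in olanzapine 1, and removing them was an alternative. Shares were compared by exact two-sided permutation tests of mouse values, for which 5 against 5 mice allow 252 splits and 4 against 5 allow 126. Nothing in the labels says that mice of a group differ in litter or batch. The mice numbered 1 to 4 in the labels were olanzapine 1 and 2 and haloperidol 1 and 2, with no placebo mouse among them. They gave 79 to 128 kept cells each, and the placebo mice 166 to 512. The part of this imbalance in the results was not tested.

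On simulated counts for olanzapine against placebo, 2-fold changes were set in 96 and 4-fold changes in 89 of 2565 genes of the class other. Of these, 46.9% and 94.4% were recovered. Over all classes, from 2093 to 4369 genes, these shares ran from 23.5% (2509 genes, olig precursor) to 69.1% (2916 genes, microglia) and from 79.3% (olig precursor) to 100.0% (microglia). Far more genes were changed at once than were called in the data, which eases the adjusted threshold, so these shares may be too high for the data. The simulated mice were independent, unlike placebo 5 and the 2 libraries it shared cells with.

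The members and gene lists were chosen with earlier results of these data known. Named genes were every called gene, the 5 uncalled genes of smallest p per class with mean log2 CPM of at least 6, up to 3 members of smallest p for each list assigned to a class, the projection neuron markers and target receptors in neurons, and Tmsb4x. The text gives a part of them. Dbp, Hlf, Gnb1, Insig1, Dnaja1, Tef, Per3, Egr1 and Tmsb10 were followed across classes after their values were seen, and Lcn2 was singled out after its values were seen. A few results are not reported here.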

Additional observations from a re-analysis of the deposited data

Results flagged for a closer look

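The measurements in 5 cases stood apart from the rest of their group of 4 or 5 mice by Dixon's 95% criterion, among 83 groups examined, of which chance marks about 1 in 20. Placebo 2 had 5.42% of its cells in the class oligodendrocyte, and the other placebo mice 11.1% to 12.1%. Placebo 1 had 10.9% in the class olig precursor, and the others 2.94% to 4.66%. In neurons Drd2 was at 75.7 CPM in placebo 4 and at 139 to 162 in the other placebo mice. The same library, placebo 4, had interneuron genes at 22361 CPM of its neurons, against 4656 to 7333. Erythrocyte genes were at 29720 CPM in the class neuron of olanzapine 3, nearly all from 1 cell, and at 0 to 10.1 in the other olanzapine mice.

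For 5 genes the groups differed between a class and the remaining cells of the same mice by the exact two-sided permutation test adjusted over 6 genes: Tmsb10 by -1.05, Vwf by -3.26, Egr1 by 1.28 and Paqr5 by -1.26 in the class other, and Adamts1 by 2.24 in endothelial-typed cells (log2 scale, adjusted p from 0.0317 to 0.0429). They had been picked for their difference in that class, and Vwf (0.871 and 1.38 CPM under olanzapine and placebo) and Paqr5 (0.0625 and 0) were nearly absent from the remaining cells, so for these 2 the value restates the difference within the class.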

How the results depend on the processing

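In the class other, where 5 genes were called, 8 were called by DESeq2, 46 without the filter on low counts, 23 with at least 20 cells per mouse, 10 after removal of Scrublet doublets at the automatic threshold (which takes 38 of the 128 cells of olanzapine 2), 23 without olanzapine 1 and 2 and haloperidol 1 and 2, 0 without smooth-muscle-typed cells, 1 without the shared cells of placebo 5, 0 with adjustment over all classes together, and 0 to 11 when each mouse was left out. Removing the filter gave 2 calls in microglia, 4 in neurons and 5 in the class olig precursor, where DESeq2 gave 1 and leaving out each mouse 0 to 1. In endothelial-typed cells leaving out each mouse gave 0 to 6. The cause was not tested for any of these. The number of calls under the other settings was within 1.5 times the value reported. The settings on shared cells were chosen after seeing the data.

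Leaving out each mouse moved the difference in neuroblast share from -2.49 to 0.56 percentage points, in fibroblast-typed share from -2.60 to 1.72, in direct-pathway share from -1.46 to 8.04 (-3.90 with thinned cells) and in mitochondrial share from 0.39 to 0.68. Differences between a class and the rest ran from -1.27 to -0.77 for Tmsb10, -3.86 to -1.96 for Vwf, 1.11 to 1.45 for Egr1, -1.39 to -1.18 for Paqr5 and 2.02 to 2.41 for Adamts1. Without the shared cells they were -0.995 for Tmsb10, -2.92 for Vwf and 2.19 for Adamts1, past the threshold for none of the 3. Of 66 recalculated values over the 6 genes, 44 no longer passed the threshold. None of these was of Slc38a5, which had not passed it at first (exact permutation test, adjusted p = 0.0635). Fewer mice allow fewer splits and so a larger smallest p, which sets part of this loss. With any 1 of its 3 olanzapine or 5 placebo mice left out, Adamts1 could not pass whatever its values.

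List medians that changed sign with 1 mouse left out ran from -0.16 to 0.51 for arterial genes and -0.22 to 0.19 for capillary genes in the class other, -0.13 to 0.037 for neuroblast genes, -0.060 to 0.082 for precursor genes (0.020 without the shared cells), -0.75 to 0.064 for cholesterol synthesis and -0.072 to 0.16 for myelin genes in the class olig precursor. In neurons the receptor values ran from -0.21 to 0.14 for Drd2, -0.17 to 0.42 for Htr2c, -0.38 to 0.18 for Htr1b (-0.017 by DESeq2, -0.077 without the shared cells) and -0.34 to 0.058 for Chrm1 (0.022 without the shared cells). Of 1439 recalculated values of 112 named genes, 1377 kept their direction and their side of the threshold. Nearly all of these genes were not called at first, so for them this means only that they stayed so. With 1 mouse left out, the call was kept in 6 of 9 fits for Tmsb10, 5 for Vwf and 4 for Slc38a5. It was kept in 1 for Paqr5 and 2 for Egr1, and in 7 of 8 for Adamts1.

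No paired analysis was possible because each mouse has its own number in the labels and replicate numbers were given in the order of those numbers. Depth limits the vascular results: 4 olanzapine mice gave 12 to 95 cells each. Placebo 5 is not independent of placebo 2 and placebo 3.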
